A study of Homo sapiens with 8 samples.

Results

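The genes described here are 55 of the 19475 entries of an expression table from HCT116 cells exposed to Fusobacterium nucleatum. Each averaged 1 FPKM or more across the input libraries, and its lower F. nucleatum value plus 1 was at least 1.4 times its higher Control value plus 1. FPKM are fragments scaled by transcript length and library total. Members of the chemokine, NF-kB, TNF, DUSP, KLF, EGR, FOS, JUN, BIRC and SLC symbol families, and 8 further genes led by PRNP and ICAM1, were set aside by name. What remained was led by NUAK2, IL6ST, PLAU and ATF3, and it held transcription factors, RNA decay proteins, the urokinase system, growth factor ligands and survival regulators. Since the genes were chosen by their FPKM in these libraries, the difference in mRNA level is a description and carries no test for these genes. The m6A calls were not used by the rule, although each call sets an m6A library against the same input.

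HCT116 is a colorectal carcinoma line. Control cells received PBS, and the F. nucleatum group received the bacterium, an anaerobe found in colorectal tumours, for 2 h in the methods of the study. Poly(A) RNA was fragmented and sequenced before (input) and after pull-down with an antibody to N6-methyladenosine (IP), with 2 biological replicates a group and 8 libraries in all. There was 1 cell line and no other bacterium in the series, so a response particular to F. nucleatum cannot be told apart from a response to bacteria in general. In bulk RNA, a change in every cell and a larger change in some cells cannot be told apart. All 8 epithelial markers checked were at or above 1 FPKM, and 9 of 10 leukocyte markers and 9 of 10 fibroblast and endothelial markers were below it, the others being CD68 and COL1A1. The leukocyte list summed to 8.65 and 9.92 FPKM in Control and to 10.1 and 10.2 FPKM with F. nucleatum, the other list to between 3.93 and 6.0 FPKM a library, and their part in the results was not tested. CD3E, CD2, MS4A1, CDH5, COL1A2, DCN and LUM were at 0 in every library. Absolute depth was unknown. Relative depth of the inputs was estimated from the most frequent ratio between libraries among very low FPKM values. Taking the first Control input as 1, the estimate was 1.12 for the second, and 1.24 and 0.915 for the F. nucleatum inputs. Depth of the IP libraries was not estimated.

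Epithelial cells answer bacteria through receptors that release NF-kB and activate MAP kinases, and the earliest transcripts to appear are those of immediate early genes, which need no new protein to be copied. Many of these mRNAs are short-lived, because AU-rich elements in the 3′UTR recruit decay proteins, some of which are themselves induced and close the loop. m6A is laid on nascent mRNA, mostly at GGAC and related DRACH sequences (D is A, G or T, R is A or G, H is A, C or T), and it gathers in long internal exons and around stop codons. A common outcome of the mark is faster decay of the mRNA that carries it.

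Windows of 29 bases around GGAC show what lay under the m6A regions on which the results turn. The GGAC nearest the middle of the region is in capitals, and the sequence was read from GRCh37 on the strand of the mRNA. The first pair is from NUAK2, whose 2 regions were weak in Control and strong with F. nucleatum. PLAU and ATF3 follow as further mRNAs with stronger regions, then GPATCH4 and SCAF4, whose regions were weaker with F. nucleatum, and last the SCAF4 region listed only in Control.
NUAK2 around the stop codon, chr1:205272646-205272674, minus strand: ggatcctttgggGGACagctgcttttccc
NUAK2 3′UTR, chr1:205271451-205271479, minus strand: tctaggccttcaGGACtctagaatgtcca
PLAU around the stop codon, chr10:75676224-75676252, plus strand: atgtgccctgaaGGACaagccaggcgtct
ATF3 3′UTR, chr1:212793071-212793099, plus strand: agagtgggtcttGGACcagggcaagtgca
GPATCH4 CDS, chr1:156564937-156564965, minus strand: tcaagaggaggaGGACatcttggatgtaa
SCAF4 CDS, chr21:33044020-33044048, minus strand: gagccctgaccgGGACaggcacagagact
SCAF4 CDS, listed only in Control, chr21:33057767-33057795, minus strand: tttctgcctcctGGACccccacctcctat

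Of 11088 entries with a mean of at least 1 FPKM, 82 (0.74%) met the ratio, and 27 of these were set aside by symbol. The same ratio with the groups exchanged was met by 19 entries (0.171%), and both F. nucleatum libraries lay above both Control libraries in 26.1% of entries. On the log2(FPKM + 1) scale the difference had a median of 0.78 over the 55 genes, with a range of 0.55 to 2.0, beside 0.01 over all entries tested. The fold of group means had a median of 1.87 and ran from 1.49 to 10.0, and 22 genes were at or above 2-fold. limma on log2(FPKM + 1) called 74 entries higher (0.667% of those tested) and 15 lower (0.135%), or 0.803% in all, at a Benjamini-Hochberg adjusted p under 0.05. The higher count was 35 without the filter on low values, 16 without F. nucleatum 1, 13 without F. nucleatum 2, 136 without Control 1 and 185 without Control 2. With all libraries and the filter, limma called 43 of the 55, which the rule itself favours and which is therefore no result. The Control means were neither low nor high as a set, with a median of 8.21 FPKM beside 9.27 over all tested, but they spread from 0.339 FPKM in IL6ST to 114 in IER3. The gene bodies were compact. Their median span was 14.4 kb with 6 exons and a canonical transcript of 2654 nt, beside 31.6 kb, 9 exons and 3238.5 nt over 10676 tested genes.

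**Figure D1:**
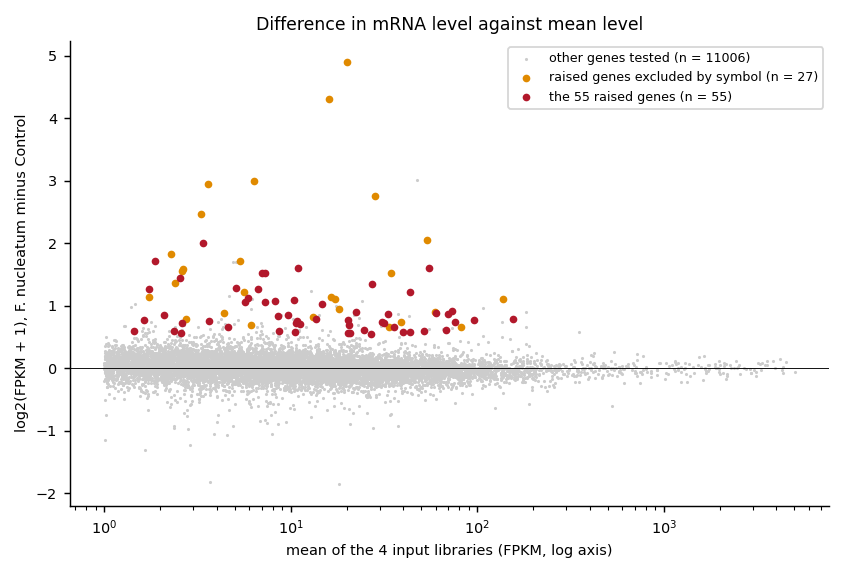
Difference between group means on the log2(FPKM + 1) scale (vertical axis) against the mean FPKM of the 4 input libraries (horizontal, log axis), 1 point a gene. The 55 raised genes lie between 0.55 and 2.0 across the range of levels, while the median of all genes tested is 0.01.

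Among transcription factors, values below are in the order Control 1, Control 2, F. nucleatum 1 and F. nucleatum 2. ATF3, a stress-induced partner of JUN, was at 4.52, 5.38, 16.4 and 17.5 FPKM. IRF1, an activator of interferon and inflammatory genes, was at 2.77, 2.34, 7.72 and 7.50 FPKM. MAFF, a small MAF protein that pairs with NRF2 and related factors, was at 9.11, 9.41, 18.2 and 21.8 FPKM. In all 3 the groups were far apart relative to the gap between libraries of 1 group, with folds of means of 3.43, 2.98 and 2.16. The orphan nuclear receptor NR4A1, an immediate early gene, had 9.03, 10.5, 16.9 and 18.1 FPKM. ZBTB7A, a repressor of the POK family, had 2.77, 3.98, 8.23 and 8.73 FPKM. BHLHE40, a clock-linked repressor, had 22.8, 24.3, 38.1 and 40.8 FPKM. The remaining nuclear regulators were higher by 1.51-fold to 1.76-fold. They were the leucine zipper factor CEBPD (15.4 ± 1.18 to 25.6 ± 0.383 FPKM, SD, n = 2), the epithelial ETS factor ELF3 (16.1 ± 0.0483 to 24.4 ± 0.594), the epithelial zinc finger repressor OVOL1 (16.5 ± 0.383 to 25 ± 0.444) and the nuclear protein CSRNP1 (7.86 ± 0.574 to 13.6 ± 0.204). KDM6B, which removes the repressive methyl mark of histone H3 lysine 27, read 3.46, 3.25, 5.64 and 6.19 FPKM.

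Proteins that shorten the life of mRNA, with NOCT as a relative of deadenylases, formed the next group. ZFP36 (tristetraprolin) binds AU-rich elements and calls in deadenylases, and its mRNA went from 49.0 and 48.9 FPKM in Control to 88.7 and 90.9 with F. nucleatum. Its paralog ZFP36L1 went from 40.1 and 42.3 to 60.9 and 64.9 FPKM. ZC3H12A, or regnase-1, is an endonuclease that cuts inflammatory mRNAs and was at 7.98, 7.67, 13.8 and 14 FPKM. BTG2 ties the CCR4-NOT deadenylase to growth arrest and had the largest fold of these decay proteins, 2.30, with 5.98 and 6.65 FPKM in Control and 14.8 and 14.3 with F. nucleatum. NOCT, related to deadenylases, read 6.98, 6.33, 12.6 and 12.9 FPKM. In each of these 5 the libraries of a group differed by at most 1.11-fold. Among genes of RNA processing, CLK1, a kinase of splicing factors, had 19.3 ± 0.786 FPKM in Control and 29.9 ± 1.07 with F. nucleatum (SD, n = 2). SCAF4, which restrains early transcript termination, had 7.94, 8.48, 12.9 and 12.7 FPKM. GPATCH4, a nucleolar G-patch protein, had 11.6, 18.9, 38.4 and 39.8 FPKM, and its Control libraries were 1.63-fold apart.

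The urokinase system was represented by the protease and its receptor. PLAU, the protease that turns plasminogen into plasmin, had 27.8 and 25.4 FPKM in Control and 80.7 and 85.9 with F. nucleatum, a 3.13-fold difference of means. PLAUR, which holds the protease at the cell surface, had 41.1, 42.9, 77.0 and 80.1 FPKM. The receptor thus differed by less than the protease, at 1.87-fold. Ligands were PDGFB, which drives mesenchymal cells (6.34, 5.42, 10.9 and 11.5 FPKM), and EFNA1, a membrane-bound ligand of Eph receptors (14.6, 16.2, 29.6 and 29.4 FPKM). ARTN, a neurotrophic ligand of the GDNF family, had 1.90, 5.58, 9.46 and 9.60 FPKM, so its size rests on which Control library is taken. IL6ST, the gp130 subunit shared by receptors of the interleukin-6 family, had 0.201 and 0.477 FPKM in Control and 3.46 and 3.34 with F. nucleatum. Its 10.0-fold difference of means was the largest of the 55, and its Control mean was the lowest. The proteoglycan SDC4, a co-receptor at focal adhesions, had 72.7, 68.5, 117 and 125 FPKM, and RAET1L, a ligand of the NKG2D receptor of killer cells, had 2.45 ± 0.101 and 4.83 ± 0.501 FPKM (SD, n = 2).

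Kinases and regulators of signalling and survival followed. NUAK2, an AMPK-related kinase and a target of YAP and TEAD, stood first by the ratio, with 0.689 and 0.822 FPKM in Control and 6.10 and 5.91 with F. nucleatum. RGS2, which switches off Gq signalling, had 34.5, 34.4, 49.6 and 55 FPKM. GEM, a small GTPase that restrains calcium channels, had 4.17, 2.51, 6.6 and 9.38 FPKM, the widest gap between F. nucleatum libraries of any of the 55 at 1.42-fold. PPP1R15A (GADD34) restores translation by directing the removal of phosphate from eIF2 alpha, and it had 52.1, 55.5, 81.3 and 84.2 FPKM. ITPKC, which phosphorylates the second messenger inositol trisphosphate, had 7.97, 8.54, 13.9 and 14.4 FPKM. TICAM1 (TRIF), the adaptor of Toll-like receptors 3 and 4, had 21.3, 22.0, 31.8 and 32.5 FPKM. Genes of both death and survival were present. PMAIP1 (NOXA), a BH3-only killer protein, had 27.8, 27.0, 43.9 and 43.8 FPKM. XIAP, a direct caspase inhibitor, had 0.739, 1.18, 2.21 and 2.45 FPKM. IER3, a stress-induced regulator of NF-kB and cell death, was the most abundant, with 115, 113, 194 and 202 FPKM. The stress kinase PLK3 had 31.6, 31.9, 48.0 and 47.4 FPKM, and NEK9, a mitotic kinase, had 3.42, 5.42, 9.87 and 10.3 FPKM. ANAPC10, a subunit of the anaphase-promoting complex, had 6.68 ± 0.0899 and 10.6 ± 0.249 FPKM (SD, n = 2).

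The rest had no common role. AK3, an adenylate kinase of the mitochondrial matrix, had 2.73, 3.57, 11.2 and 10.7 FPKM, and MOCS2, of molybdenum cofactor synthesis, had 5.12, 4.74, 12.1 and 10.9 FPKM. TOR1AIP2, the endoplasmic reticulum cofactor of torsin, had 0.746, 1.05, 4.14 and 4.20 FPKM. CDV3 was among the abundant members with 27.8, 23.8, 61.3 and 61.1 FPKM. The detoxifying enzyme CYP1A1, a target of the aryl hydrocarbon receptor, had 1.12, 1.27, 2.73 and 3.19 FPKM. The hair keratin-associated genes KRTAP2-3 (54.0, 46.5, 96.1 and 95.0 FPKM) and KRTAP2-1 (1.72, 1.71, 3.57 and 3.42 FPKM) are near-identical copies of each other and of KRTAP2-4, which had 5.51, 4.29, 8.56 and 8.04 FPKM. How fragments were shared between the 3 is uncertain. POLDIP2, a mitochondrial and nuclear protein that binds DNA polymerase delta, had 21.6, 24.7, 40.8 and 45.5 FPKM. RRM2B, the p53-induced subunit of ribonucleotide reductase, had 6.04, 1.41, 11.2 and 10.5 FPKM, and TMEM164 had 0.275, 0.991, 2.86 and 2.81 FPKM. In both of these the Control libraries were further apart in fold than the higher of them was from either F. nucleatum library. CAPZB caps actin filaments and had 22.9 ± 1.76 and 38.8 ± 2.54 FPKM, and HLCS attaches biotin to carboxylases and had 1.88 ± 0.0590 and 3.28 ± 0.0596 FPKM (SD, n = 2). Just inside the ratio were TICAM1, above, the small GTPase ARL14 (0.969, 0.906, 2.08 and 1.81 FPKM), the tight junction scaffold TJP1 (12.5, 17.1, 26.8 and 24.5 FPKM) and the small GTPase RAB37 (1.62, 1.73, 2.83 and 3.26 FPKM), with ratios of 1.427, 1.426, 1.411 and 1.402. Just outside it lay LAMB3, ZDHHC3, FGF1 and CDKN1A, with ratios of 1.396, 1.395, 1.392 and 1.389. LAMB3 read 22.0, 24.8, 35.0 and 40.7 FPKM and CDKN1A 85.7, 89.9, 126 and 125 FPKM. ZDHHC3 read 3.26, 3.33, 5.04 and 5.32 FPKM and FGF1 1.15, 1.28, 2.17 and 2.90 FPKM, and these differ little from the genes just inside.

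**Figure D2:**
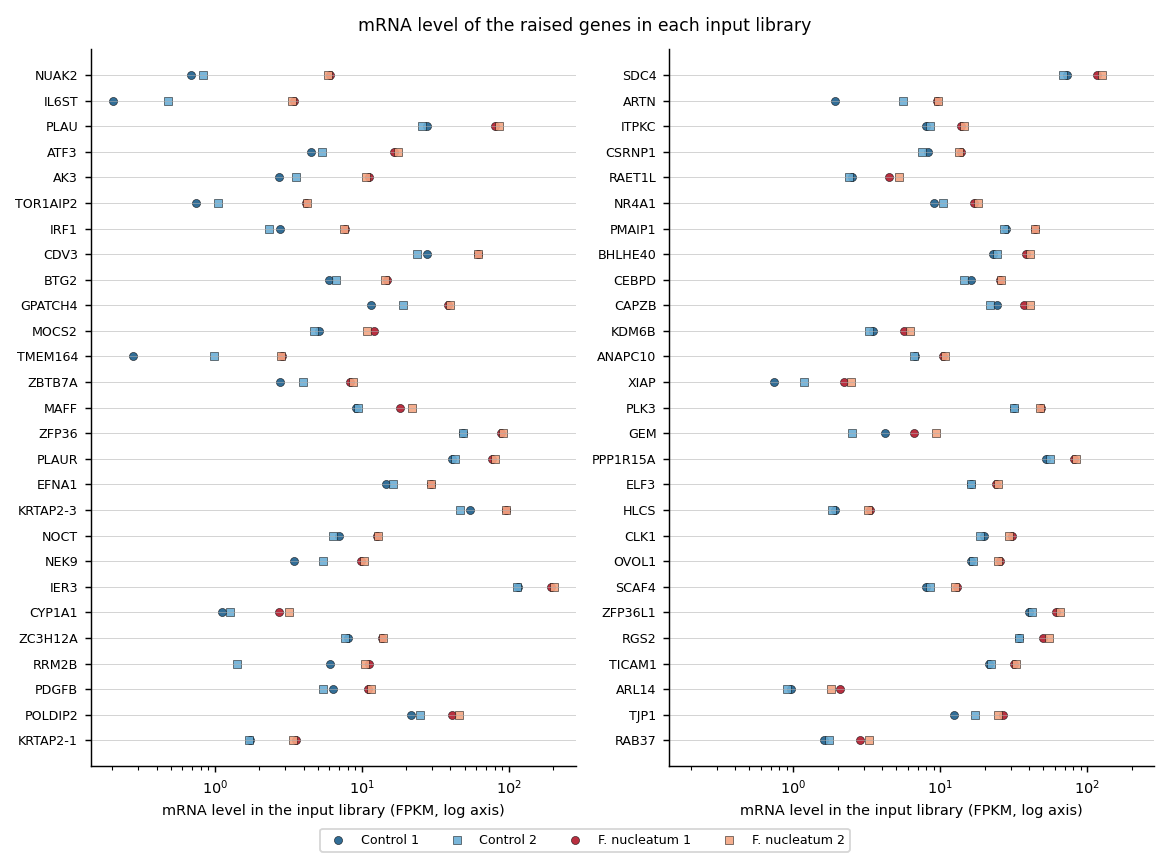
FPKM of the raised genes (rows, ordered by the ratio of the rule) in each of the 4 input libraries (horizontal, log axis), circles for replicate 1 and squares for replicate 2. By the rule both F. nucleatum points lie to the right of both Control points, and wide gaps between the Control points are seen in RRM2B, TMEM164, ARTN and IL6ST.

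Replicate spread was unequal between the groups in these genes. The Control libraries were over 1.5-fold apart in 8 genes (RRM2B, TMEM164, ARTN, IL6ST, GEM, GPATCH4, XIAP and NEK9), and the F. nucleatum libraries were so in 0 genes. The largest gaps were 4.28-fold in Control and 1.42-fold with F. nucleatum. No such count over all entries tested is given here. Whether the wider Control gaps are particular to these genes or common to the Control libraries was therefore not tested. The rule reads neither the lower Control value nor the higher F. nucleatum value. Overlapping transcripts limit some values, because it is not given whether the counting used strand. The shares below are over the merged exons of all annotated transcripts, so the main mRNAs may overlap less. GPATCH4 shares 98.1% of its exon bases with NAXE on the opposite strand, which was at 77.2, 78.6, 73.9 and 72.9 FPKM and so did not follow it. POLDIP2 shares 14.2% with TNFAIP1 and HLCS 12.2% with SIM2, both on the opposite strand. Noncoding RNAs on the opposite strand share 32.6% of the exon bases of IER3, 27.3% of OVOL1, 22.9% of IRF1 and 21.3% of RAB37. Those RNAs have no FPKM entry under their annotated names. PLAU shares 31.0% with C10orf55 on the opposite strand, listed at 0.375, 0.260, 1.3 and 1.36 FPKM, and ANAPC10 shares 22.6% with another protein-coding gene model on its own strand.

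Role lists put the 55 beside genes of the same pathways that the rule did not take. The lists were compiled from general knowledge, but with earlier results of these data known, and 23 of the 55 were in one. Outside the 55, the 6 lists held 158 tested genes, of which 24 rose and 0 fell by limma (adjusted p under 0.05), where 0.667% and 0.135% of all entries did. The count of 24 was 15 without the filter, 10 and 9 without F. nucleatum 1 and 2, and 37 without Control 2. All of those 24 but IER2, LIF and CDKN1A met the ratio and were set aside by symbol. They are not independent of the choice, so their p-values are a description. The NF-kB list had 35 tested genes. It held IRF1, IER3, SDC4, TICAM1 and ZC3H12A of the 55, and 5 of the other 30 rose, among them the inhibitors NFKBIA (log2 difference 2.06 ± 0.06, SE, limma adjusted p 0.000524) and TNFAIP3 (1.56 ± 0.12, limma adjusted p 0.00852). The list of immediate early genes and targets of SRF had 40, with ATF3, BTG2, MAFF, NR4A1 and ZFP36 of the 55, and 9 of the other 35 rose. JUN, a subunit of AP-1, rose by 1.53 ± 0.06 on the log2 scale (limma adjusted p 0.00082) and IER2 by 0.43 ± 0.05 (limma adjusted p 0.0342). Of 23 targets of YAP and TEAD, NUAK2 was the only one of the 55, and CYR61, CTGF and THBS1 rose among the other 22. CTGF, a matricellular protein, went from 4.41 and 4.50 to 7.53 and 8.15 FPKM (limma adjusted p 0.0325).

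The list of secreted ligands and proteases had 29 tested genes, with PLAU, PDGFB and EFNA1 among those of the 55, and 6 of the other 25 rose. They were LIF and 5 chemokines, and the 5 had met the ratio and were set aside by symbol. Of these CXCL8, the main neutrophil attractant, went from 0.396 and 0.335 to 40.8 and 38.9 FPKM (limma adjusted p 4.84e-05, a description). LIF, whose receptor contains the gp130 protein made by IL6ST, went from 60.2 and 60.2 to 79.7 and 80.1 FPKM (limma adjusted p 0.0459). Among 29 feedback regulators 5 were of the 55 (GEM, KDM6B, PPP1R15A, RGS2 and ZFP36L1). Of the other 24, 1 rose, the phosphatase gene DUSP8, which had also met the ratio. Of 27 genes of apoptosis and survival, PMAIP1, XIAP and PLK3 were of the 55, and 1 of the other 24 rose, the cell cycle inhibitor CDKN1A (limma adjusted p 0.0244). The median log2 difference of the other list genes lay between 0.14 for NF-kB and 0.38 for secreted ligands, and 32 of the 55 fell in none of the 6 lists.

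Promoter windows were looked at for the DNA motifs of the factors named in those lists. RefSeq promoters (GRCh38.p14) of 250 bases before to 50 after the start were matched by symbol for 45 of the 55. Among the 10 without an entry were IER3, RRM2B, PDGFB, CEBPD, GEM, OVOL1, SCAF4, ARL14 and RAB37. A κB consensus on either strand was in 10 of 45 promoters (22.2%), in 10.8% of all 27305 promoters and in 13.2% of 9185 promoters of tested genes. The TATA box TATAAA, on either strand and anywhere in the window, was in 9 (20%), in 12% of all and in 5.07% of tested genes, and in 7 of the 9 it began 27 to 43 bases before the start, the KRTAP2 copies among them. The AP-1 motif TGANTCA was in 2 (4.44%, beside 7.76% and 4.17%), the TEAD motif CATTCC in 4 (8.89%, beside 14% and 10.6%) and the CArG box in 1 (2.22%, beside 1.29% and 1.03%), which overlaps the TATA box of CYP1A1. The GC box GGGCGG was in 29 (64.4%, beside 44.6% and 72.5%). These shares are descriptions over few promoters, and a match is not a bound site.

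The windows below show the motif matches in genes of the NF-kB list with a κB match, in ELF3, in NUAK2, the YAP and TEAD target, and in PLAUR. Capitals mark the match as it reads on the strand of the gene, and the number is the position of its first base from the transcription start.
IRF1, κB, -50: gccagggctGGGGAATCCCgctaagtgtt
SDC4, κB, -97: gcttccactGGGGAATTCCgggcggggtg
TICAM1, κB, -120: ggcgacccgGGGACTTTCCcggtgctgcg
ELF3, κB on the other strand, -88: taaaggccaGGAAATCCCCtccatccaat
NUAK2, TEAD, -197: cccctagtcccCATTCCtggtgggcgggt
NUAK2, TEAD on the other strand, -18: tataacaacttGGAATGctgtgctttact
PLAUR, AP-1, -186: tcacaactccaTGAGTCAgggccgagcca

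At the other end of the mRNA, the AU-rich pentamer ATTTA was in the 3′UTR of 47 of the 55 (85.5%), beside 72.5% of 10532 tested genes. The 3′UTRs were of ordinary length, with a median of 1275 nt beside 1279.5 nt, and held a median of 2.52 pentamers per kb beside 1.68. Overlapping pentamers, the arrangement of classical AU-rich elements, were in 10 of the 55 (18.2%) and in 7.28% of tested genes. These 10 were NUAK2, TOR1AIP2, IRF1, MAFF, RRM2B, PDGFB, ARTN, CSRNP1, XIAP and ZFP36L1. Short 3′UTRs differed most, since of those with 50 to 500 nt 7 of 11 (63.6%) held a pentamer beside 33.9% of 2582, while in the longest class the shares were 95.7% and 94.4%. IER3 had 6 pentamers in 737 nt, ZFP36 had 5 in 708 nt and PLK3 had 3 in 312 nt. ZFP36 and ZFP36L1 thus hold the pentamer in their own 3′UTRs, as do 72.5% of tested genes. Binding of their proteins to these sites was not tested.

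**Figure D3:**
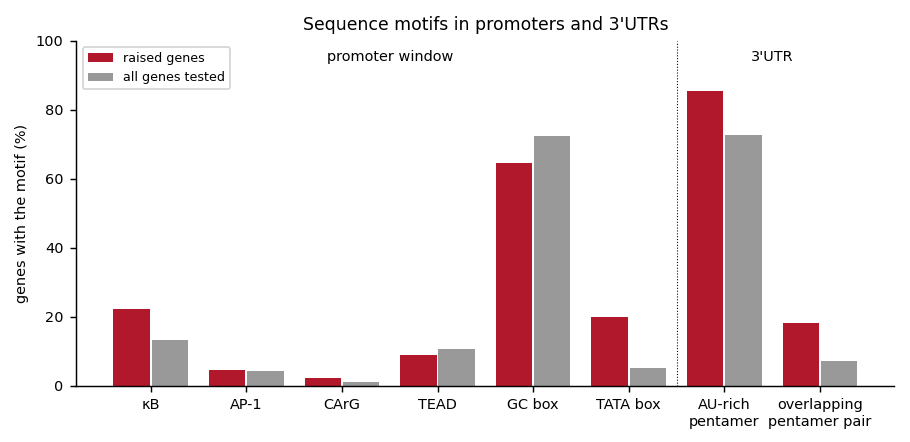
Share of genes (%) with each motif in the promoter window (left of the dotted line, 45 raised and 9185 tested genes) or in the 3′UTR (right, 55 raised and 10532 tested genes). The shares of the raised genes are above those of tested genes for the κB motif, the TATA box, the AU-rich pentamer and its overlapping pair, and below for the TEAD motif and the GC box.

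m6A peaks were called by the authors for each replicate, and the only value per peak was read as their p-value. The Control lists held 92 and 86 peaks in the 55 genes, and the F. nucleatum lists 92 and 87. The means were 89.0 ± 4.24 and 89.5 ± 3.54 peaks (SD, n = 2, two-sided exact permutation p of 1, where 2 libraries against 2 cannot go below 0.333). A peak was listed in 48, 47, 48 and 47 of the 55 genes, which is 86.4% ± 1.29 in both groups (SD, n = 2), beside 74.9% to 77.6% of tested genes. Over all listed peaks these counts differed by no more than the spread between replicates, and the difference of 0.5 peaks turned to -2.5 without Control 2 and to -2 without F. nucleatum 1. With peaks kept at a p of at most 1e-05 it was 10.5 peaks and 5.45 percentage points of genes (exact permutation p of 0.333 and 0.667). In 47 genes a peak was listed in all 4 libraries, as in 68.7% of tested genes. AK3 had a peak in Control 1 alone and IRF1 in F. nucleatum 1 alone. No peak was listed for TMEM164, RRM2B, KRTAP2-1, RAET1L, ANAPC10 and RAB37, and all of these but RRM2B and ANAPC10 were below 6 FPKM in every library. Absence from a list means that no peak was called.

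Peaks that touched on the same strand were merged into 100 regions in 49 genes. Of these 66 were in all 4 lists (66%, beside 55.6% of the 18933 regions in tested genes), and 33 were in a mixture of lists. One region was lost, that is in both Control lists and in neither F. nucleatum list, beside 2.59% of regions in tested genes, and 0 were gained, the reverse, beside 2.27%. Counted by gene, 4.25% of tested genes had a lost and 3.76% a gained region. With peaks kept at a p of at most 1e-05, 0 were lost and 6 gained, and without any 1 library 2 to 6 were lost and 3 to 7 gained. The lost region lay in the CDS of SCAF4 (chr21:33057499-33057918) and was weak, with p-values of 0.00048 and 0.00076. Its window is given above, and the gene kept a second region in all 4 lists. Of 17 regions in a single list, 8 were in a Control list and 9 in a F. nucleatum list. The 34 regions that were not in every list were short and weak, with a median of 180 nt and a median lowest p of 8.9e-05, beside 778 nt and 6.7e-52 for the 66.

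By position, on canonical transcripts 39 of 85 had their middle in the CDS (45.9%), 33 in the 3′UTR (38.8%), 11 within 100 nt of the stop codon (12.9%) and 2 in the 5′UTR (2.35%). Over 16130 regions of tested genes the shares were 44.6%, 34.2%, 16.1% and 5.15%. GGAC was in 82 of 100 regions (82%, beside 74.6%) and in 93.9% of the 66 in all lists, with a median of 4 copies in each. The wider DRACH consensus was in 96% beside 95.0%. The regions were longer than those of tested genes, at a median of 509.5 nt beside 357 nt, which by itself gives more room for a motif. The strongest were in CDV3, KRTAP2-3, RGS2, ZFP36, ZFP36L1 and BHLHE40, and p-values of 0 were listed in the first 3 of these. ZFP36 had 1e-142 and 1e-200 in Control and 1e-307 and 1e-256 with F. nucleatum, in a region over most of its CDS (chr19:39897487-39899488). BHLHE40 had 1e-116, 1e-155, 1e-204 and 1e-240 (chr3:5023107-5025676), and RGS2 1e-214, 1e-221, 0 and 1e-289 (chr1:192778169-192781017). In these 3, both F. nucleatum p-values were the lower ones.

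**Figure D4:**
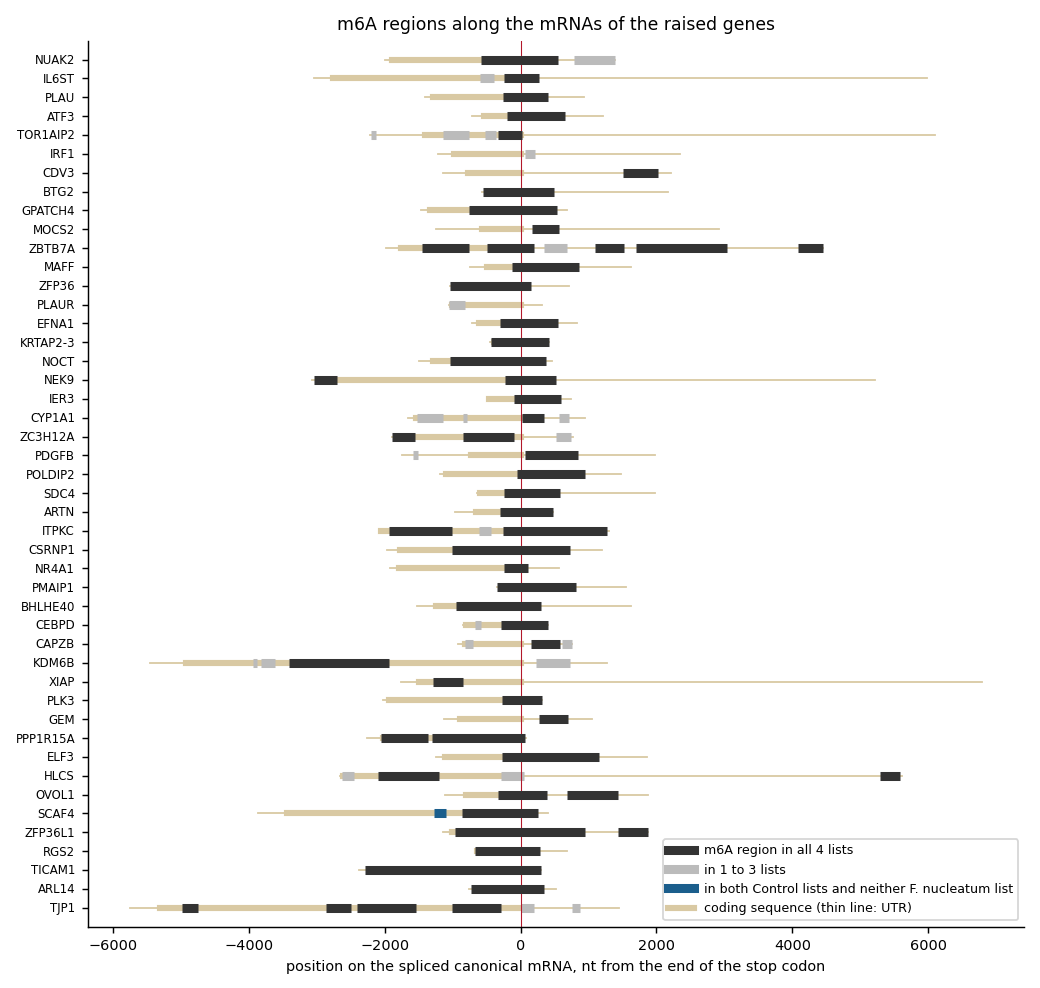
m6A regions (dark, in all 4 lists, pale grey, in 1 to 3, blue, in both Control lists only) along the spliced canonical mRNAs of the raised genes, in nt from the end of the stop codon at 0, with the CDS as a thick and UTRs as a thin line. Regions lie in the CDS, across the stop codon and in the 3′UTR, and the single blue region is in the CDS of SCAF4. Regions outside the canonical transcript, as in NR4A1 and PLAUR, are not drawn.

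The strength of the regions separated the groups. Over the 66 regions in all lists the median of −log10 p was 23.8 and 32.7 for Control, and 44.4 and 39.8 for F. nucleatum. The group means were 28.3 ± 6.22 and 42.1 ± 3.29 (SD, n = 2), a difference of 13.8 in which the groups did not overlap (two-sided exact permutation p of 0.333, the smallest this design allows). Over all 10518 such regions of tested genes the medians were 16.7, 19.7, 19.7 and 15.9. Both F. nucleatum p-values were below both Control p-values in 39 of the 66 (59.1%, beside 15.5% of regions in tested genes), in 32 genes. The reverse held in 4 (6.06%, beside 19.1%). A peak p-value grows with the number of fragments as well as with the enrichment of the IP over the input. A larger amount of the same methylated mRNA and a larger methylated share of it therefore cannot be told apart here, and these lists give no fold enrichment.

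Other genes that met the ratio in either direction were read in the same way. In the 27 raised genes set aside by symbol 18 of 26 regions were stronger with F. nucleatum (69.2%), and in the 19 genes that met the ratio downward 1 of 19 was (5.26%) and 5 were weaker (26.3%). The stronger share was thus above the 15.5% of tested genes in both raised sets and below it in the lowered set. The same input libraries enter the level and the peak call.

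NUAK2 went from barely listed to strongly called. Its region around the stop codon (chr1:205272028-205273163) went from values of 0.00015 and 0.00045 in Control to 1.6e-36 and 5e-34 with F. nucleatum. A second region in its 3′UTR (chr1:205271191-205271789) was missing from Control 1, had 0.00012 in Control 2 and reached 2e-26 and 1.6e-21. Peaks in NUAK2 covered 331 and 360 nt in Control and 1735 and 1705 nt with F. nucleatum. For ATF3 the 3′UTR region (chr1:212792682-212793550) went from 2.8e-07 and 6.8e-06 to 1.6e-31 and 2e-31. PLAU had 1 region from the end of the CDS into the 3′UTR (chr10:75675073-75676720), with 3.2e-44 and 1.6e-43 in Control and 1e-132 and 2.5e-97 with F. nucleatum. In its receptor PLAUR the p-values were 6.3e-46, 7.9e-44, 1e-118 and 2e-92, and in SDC4 they were 7.9e-51, 4e-81, 1e-160 and 1e-119. In these regions of the 5 genes the groups were separate. A second PLAUR region (chr19:44169589-44174321), in the CDS, was not. It had 2e-14 and 1.8e-05 in Control and 5.6e-06 in F. nucleatum 1, and it was missing from F. nucleatum 2. BTG2 likewise had 2.5e-10 and 5e-13 in Control against 1.3e-40 and 5e-28, over a region that runs from the 5′UTR past the stop codon.

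IL6ST, the gene with the largest fold in level, showed no such separation. Its region around the stop codon (chr5:55236642-55237151) had 0.0016 and 2e-15 in the Control lists against 7.9e-11 and 4.5e-07. The lowest p-value of the 4 was thus in a Control library in which the mRNA was at 0.477 FPKM. XIAP had 0.00049, 1e-12, 1.6e-06 and 0.00035, also lowest in Control 2, at 1.18 FPKM. TOR1AIP2 had a region of 3 exon blocks outside the canonical transcript, with 6.3e-47, 3.2e-62, 1.6e-53 and 4e-57. The gene was at 0.746, 1.05, 4.14 and 4.20 FPKM. A CDS region of TOR1AIP2 (chr1:179815184-179815544) did separate the groups, with 7.2e-07, 1.3e-16, 4e-21 and 4e-19. Of 124 tested genes with a Control mean under 1 FPKM, 60 (48.4%) had a peak in both Control lists, and 12 reached 1e-10 in Control, of which these are 3. These 124 passed the filter on mean FPKM only through their F. nucleatum values. They are therefore not a background of genes that are low in Control. In IL6ST and XIAP only Control 2 was that strong, and in TOR1AIP2 both Control lists were.

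**Figure D5:**
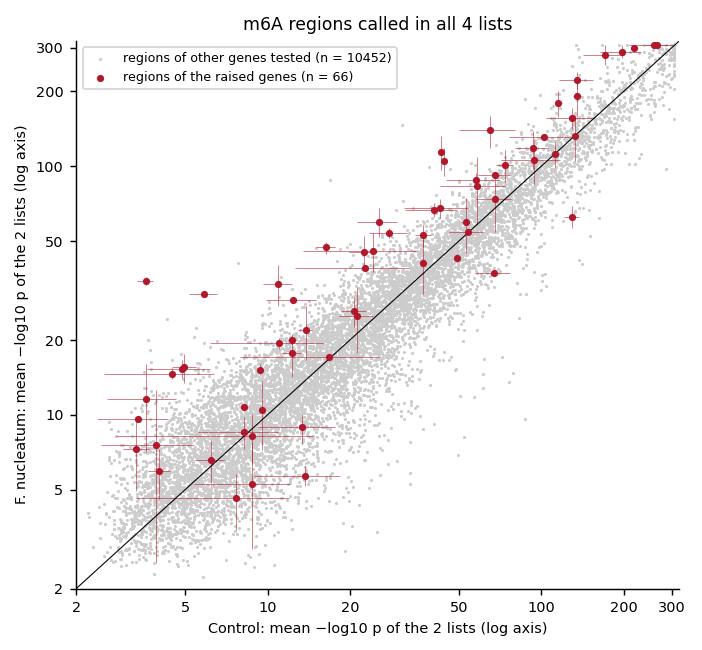
Mean −log10 p of the 2 F. nucleatum lists (vertical, log axis) against that of the 2 Control lists (horizontal, log axis) for regions in all 4 lists, with p-values of 0 drawn at 307, bars spanning the 2 lists and the line marking equality. Regions of the 55 genes (66 points) lie mostly above the line, and those of other genes lie around it.

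Regions that weakened were in GPATCH4, SCAF4, NEK9 and ZBTB7A, all without a role list. The GPATCH4 region (chr1:156564250-156565536), in the CDS and 3′UTR, had 1e-121 and 1e-138 in Control and 7.9e-70 and 4e-57 with F. nucleatum, while its FPKM was 2.57-fold higher. Because annotated transcripts of NAXE overlap the gene, which of the 2 mRNAs the region belongs to is uncertain unless strand was used. Whether those NAXE transcripts are present in these cells was not tested. SCAF4 (chr21:33043462-33044567) had 7.9e-78, 6.3e-58, 4e-38 and 1.6e-37. The differences were small in NEK9 (chr14:75550747-75553827), with 5e-50, 1.6e-49, 5e-45 and 4e-42. ZBTB7A had 1.2e-09, 4e-19, 6.5e-06 and 6.2e-07 in a CDS region (chr19:4054233-4054921), and a 3′UTR region of the same mRNA (chr19:4046234-4046652) went the other way, with 3.1e-10, 6.5e-10, 1e-16 and 4e-15. GPATCH4 and NEK9 are among the 8 genes whose Control libraries were over 1.5-fold apart in level. By role, 19 of 27 regions in genes of a role list were stronger with F. nucleatum and 0 weaker, and in the other genes 20 of 39 were stronger and 4 weaker. The difference between these 2 sets was not tested.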

How the data were processed

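Values were analysed from the 4 input libraries and the 4 m6A peak lists, 2 replicates each for Control and F. nucleatum, grouped by the sample labels. The deposited expression values are FPKM, made by the authors with StringTie after alignment to hg19 (the submitters' processing notes name Trim Galore 0.3.3 and HISAT2 2.1.0). The value in the deposited peak lists was read as the authors' p-value of IP against input for each replicate. The methods name MACS2, while the layout is that of exomePeak, so the caller is not settled. Read counts and fold enrichment were not used here.

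The raised genes and all lists were chosen with earlier results of these data known. 1 raised gene is counted but not reported here by name. The others are named, with values per library for the 30 with the largest ratio, for those in a role list, for those next to the limit and for those with a lost or very strong region. Of role list genes outside the rule, some that limma called are named as examples, and LAMB3 and FGF1 as genes next to the limit. The rule was applied to FPKM with a mean of at least 1. Expression was fitted with limma 3.58.1 in R 4.3.3 (trend) on log2(FPKM + 1), a scale that understates changes of low genes, with Benjamini-Hochberg adjustment over 11088 entries, because the count model of the methods needs counts. In 20 of the entries tested a date-like number stands in place of the symbol. The fit was tried on simulated, normally distributed values for 11088 genes. It recovered 94% of 100 changes of 1 log2 unit and 100% of 100 changes of 2. It also made 20 false calls, and the real values may depart from that setting. Peaks on the same strand sharing at least 1 base in exon blocks were merged. Positions and sequences are from GRCh37 with GENCODE release 44 mapped to it, 1-based. Group means were compared by exact permutation in Python 3.11.15 with SciPy 1.17.1. Permutation p-values rest on 2 libraries a group, and limma p-values on the spread of these libraries moderated by a trend over all entries. Peak p-values set IP against input within 1 replicate and measure no spread between libraries. Alternatives were other pseudocounts, filters, normalization, ratios, overlap rules, a stricter peak p-value, each replicate left out and a replicate block.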

Additional observations from a re-analysis of the deposited data

How the results depend on the processing

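The number of genes that meet the rule depends on its settings. It was 90 in place of 55 with 0.1 in place of 1 added to each value, 94 with a ratio of 1.3, 37 with a ratio of 1.5, 54 after scaling the libraries by their median ratio, and 97 to 177 with any library left out. The median log2 difference of the 55 was 0.90 with 0.1 added, and 0.76 to 0.83 with a library left out. limma calls fell without the filter on low values, from 74 to 35 higher, from 15 to 5 lower and from 24 to 15 among role list genes outside the 55, and a fit without trend left 9 lower. With a library left out these counts ran from 13 to 185, from 3 to 99 and from 9 to 37, lowest without F. nucleatum 2 and highest without Control 2. In those fits the lone library is assumed to vary as the other group does. Of the 55, 43 were called, but 16 without the filter, 27 without trend, 2 without F. nucleatum 1 and 2 without F. nucleatum 2. Deviations of same-numbered input libraries correlated at 0.02, so no shared replicate effect was seen. That value cannot settle whether they were prepared in pairs. A replicate block gave 75 higher, 15 lower and 25 role list genes.

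The difference in peaks, 0.5, turned to -2.5 without Control 2 and to -2 without F. nucleatum 1, within a range up to 3.5. At a peak p of at most 1e-05 it was 10.5 (exact permutation p of 0.333), and the share of the 55 with a peak differed by 5.45 percentage points in place of 0. The same limit gave 0 lost and 6 gained regions, among them both regions of NUAK2 and 1 each in ATF3, NR4A1 and ZC3H12A, each of which had a weaker peak in a Control list that the limit removes. Asking for a mutual overlap of 50% gave 3 lost and 5 gained, and leaving out a library gave 2 to 6 lost and 3 to 7 gained. Regions in all lists numbered 53 to 71 in place of 66. The difference in median −log10 p, 13.8, stayed between 9.42 and 18.2 with a library left out. Placing regions by their start put 21.2% in the 3′UTR, 7.06% near the stop codon, 55.3% in the CDS and 16.5% in the 5′UTR. Of 87 alternative values, 46 were the same within the limits set, 39 moved and 2 changed sign. Depth was not used in setting these limits, since FPKM are not counts. Its part in the peak calls and in the values of low genes was not tested.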
